A study of Bos taurus with 2 samples.

Results

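The bovine microRNA miR-2478 was followed through both fractions of cow milk whey, and it is 1 of 670 miRNAs on the array used. It was found by its array name, bta-miR-2478, and was chosen by its signal on the exosome array, the brightest there. That signal and the difference between the fractions are therefore a description, with no test. Raw milk from Holstein cows was the source of both groups. The exosome group is the pellet of whey spun at 10000 g for 90 min at 4 °C and washed, and the supernatant group is the whey left above that pellet. Equal parts of RNA from 3 milk samples were pooled, and 40 ng was labelled with the dye Cy3 for 1 array per fraction. A milk exosome is a small membrane vesicle shed by cells. The labels call the spin an ultracentrifugation, yet the force they give is below what that word usually means, so the force may be misprinted, and how completely vesicles left the supernatant is not known. With 1 array per fraction there was no replicate, and no p-value is given. Every ± below rests on the SD between spots of the same array, which covers technical spread only. For differences and steps, the SDs of the parts compared are combined. For neighbouring and control spots it is the SD over all spots of that kind, which can hold different probes.

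A miRNA is a short RNA that guides silencing proteins to messenger RNAs, chiefly through its seed, a stretch near its 5′ end. Milk carries many miRNAs, both inside vesicles and free of them. miR-2478 carries a number given to miRNAs registered from cattle sequencing. A mature transfer RNA (tRNA), the adaptor that brings amino acids to the ribosome, ends in the letters CCA, which an enzyme adds after transcription; small RNAs cut from that end of a tRNA carry the same letters. An array probe reads any labelled RNA that pairs with it, whatever gene it came from.

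miR-2478 was measured by 2 probes with 30 spots each. They are shown because the longer one repeats the shorter one and adds 1 base at its 3′ end, marked by the capital letter.
15-base probe of miR-2478: tggtgtcagaagtgg
16-base probe of miR-2478: tggtgtcagaagtggG
The RNA letters that pair with each probe, written 5′ to 3′, follow. They end in CCA, in capitals. They are read off the probes, and no array value shows where the bound RNA ended.
RNA paired with the 15-base probe: ccacuucugacaCCA
RNA paired with the 16-base probe: cccacuucugacaCCA
The array design placed the 15-base probe at chr9:28787388-28787401 and the 16-base probe at chr9:28787387-28787401 in the cattle build HGSC Btau_3.1. The intervals span 14 and 15 bases, 1 fewer than the probes, as did those of 1261 of the 1301 probes with a single placement, so 1 end is known only to within 1 base. The added base lies at the lower coordinate. The GC content was 53.3% for the shorter probe and 56.3% for the longer. RefSeq's annotation of the later assembly ARS-UCD2.0 served for gene names and neighbours. In it the gene MIR2478 stands once and 0 other genes overlap it, so it is placed in neither an exon nor an intron. Its neighbours are the protein-coding genes NKAIN2, which encodes a partner of the sodium pump, and TRDN, which encodes triadin of the muscle calcium release complex. That annotation holds 2325 tRNA genes. None of its 1032 miRNA genes overlapped a tRNA gene, and 110 of them, MIR2478 not included, had a tRNA gene as the next gene on at least 1 side.

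Every spot of miR-2478 was bright in both fractions. On the exosome array the 16-base probe ranged from 100941 to 126532 intensity units over 30 spots, with a median of 119870. In the supernatant the same probe ranged from 12873 to 15966, with a median of 14699. The dimmest exosome spot of this probe was thus brighter than the brightest supernatant spot.
The 15-base probe ranged from 16218 to 23650 on the exosome array over 29 spots, with a median of 20730. In the supernatant it ranged from 919 to 1177 over 29 spots, with a median of 1013. These ranges did not overlap either. The spots are repeats on 1 array per fraction, and how many other probes had ranges without overlap is not given here. The software flagged 1 spot of the 15-base probe as an outlier on each array, at different positions, and both were left out: 27037 on the exosome array, the highest of its 30 spots, and 754 on the supernatant array, the lowest. All 60 spots were well above background on each array, and all 60 were also called positive and significant by the software.

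**Figure D1:**
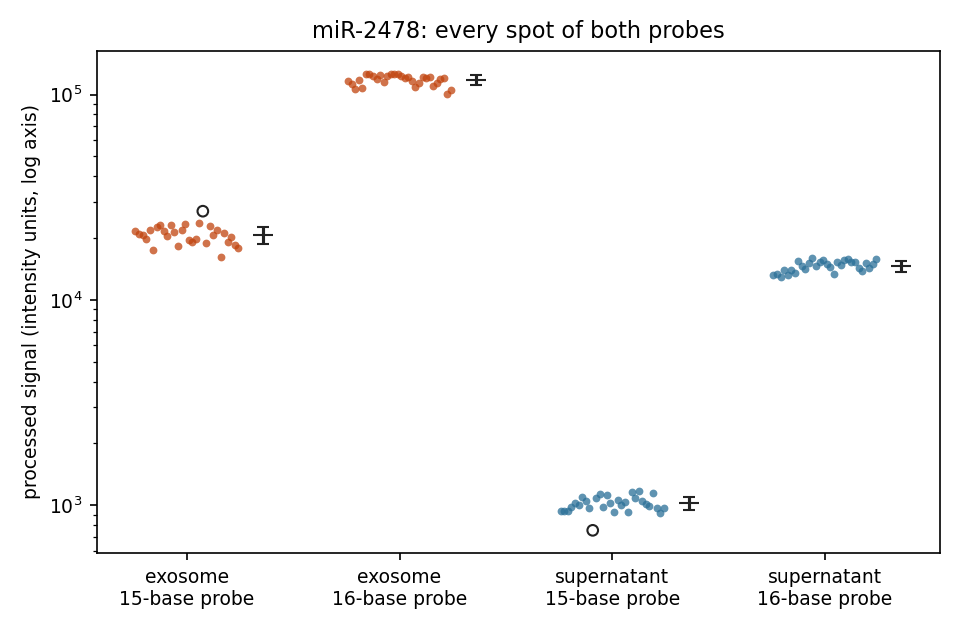
Processed signal (intensity units, log axis) of every miR-2478 spot, by array and probe; filled points are spots used, open circles the 1 outlier spot per array, and the bar beside each cloud is the mean ± SD between spots. The 16-base probe lies above the 15-base probe on each array, and for each probe the exosome spots lie above the supernatant spots with no overlap.

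The mean of the 16-base probe was 117853 ± 7002 in exosome and 14602 ± 897 in supernatant (30 spots each). The mean of the 15-base probe was 20628 ± 1923 and 1025 ± 76.1 (29 spots each). The negative control spots, which no cattle RNA is meant to bind, read 4.67 ± 3.46 (981 spots) beside the exosome RNA and 4.41 ± 3.35 (976 spots) beside the supernatant RNA, with outlier spots left out. Their highest spots read 15.0 and 15.1, so the dimmest miR-2478 spot used, 919 on the supernatant array, was 60.7 times the highest control spot there.

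The spots were uniform. The coefficient of variation between spots on the exosome array was 9.32% for the 15-base probe and 5.94% for the 16-base probe. In the supernatant it was 7.43% and 6.14%. The median over all detected probes was 11.3% (103 probes) and 8.38% (166 probes), so the spread of miR-2478 lay below that of the median detected probe on both arrays. Within single spots, the pixel variation had a median of 5.27% and 3.57% on the exosome array for the shorter and the longer probe, and 7.82% and 3.45% on the supernatant array.
No miR-2478 spot held a saturated pixel. The brightest, at 126615 before background subtraction, reached 16.3% of the software's saturation value of 778732. All 30 exosome spots above 100000 belonged to the 16-base probe of miR-2478.

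The background around these spots and the spots beside them were read for spread of their light. The local background around the 16-base spots had a median of 51 units on the exosome array, the same as the median over all 42364 spots. Spots directly beside the 16-base spots, from probes detected on neither array, read 0.68 ± 4.48 on the exosome array (143 spots), and all such spots of that array read -0.08 ± 4.45 (33102 spots). Set against the other spots of their own probes, the neighbours stood higher by a mean of 0.40 ± 3.17 units. The supernatant array gave 0.0029 ± 3.17 (147 spots). None of these neighbours was well above background, but picking them from undetected probes favours that count. Whether light spread between spots was not tested.

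Position on the array moved the values little. The 16-base probe read 14124 ± 978 in the upper rows of the supernatant array (12 spots) and 14921 ± 695 in the lower rows (18 spots), and its correlation with row number was 0.57 over 30 spots. Over the 40 supernatant probes with a mean of at least 1000 units, its own included, the median correlation with row was 0.31, so bright probes leaned the same way. On the exosome array the 16-base probe read 121265 ± 6341 in the left columns (10 spots) and 116147 ± 6826 in the right columns (20 spots). Its correlation with column was -0.41, and the median of the 8 exosome probes this bright, its own included, was -0.36. All these points share an array, so the correlations describe the slide only.

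On the exosome array miR-2478 outweighed all other miRNAs together. Averaged over its probes it read 69241 ± 5134, which was 33.3 times the next brightest, miR-1777b at 2079 ± 105. It gave 87.1% of the signal summed over the 670 miRNAs, and miR-1777b gave 2.61%. On the supernatant array miR-2478 read 7814 ± 636 and ranked 10th, with 1.77% of the summed signal. miR-1777a led there at 125084 ± 4036, or 28.4% of the sum, followed by miR-1777b at 102937 ± 4296 and miR-2305 at 58909 ± 2633. The neighbours of miR-2478 in the supernatant order were miR-1224 at 7937 ± 623 above it and miR-2893 at 7323 ± 120 below it. Neither differed from miR-2478 by more than 636, the SD between the spots of miR-2478. Brightness depends on the probe as well as on the RNA, so these ranks and shares are shares of light, not of molecules.

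**Figure D2:**
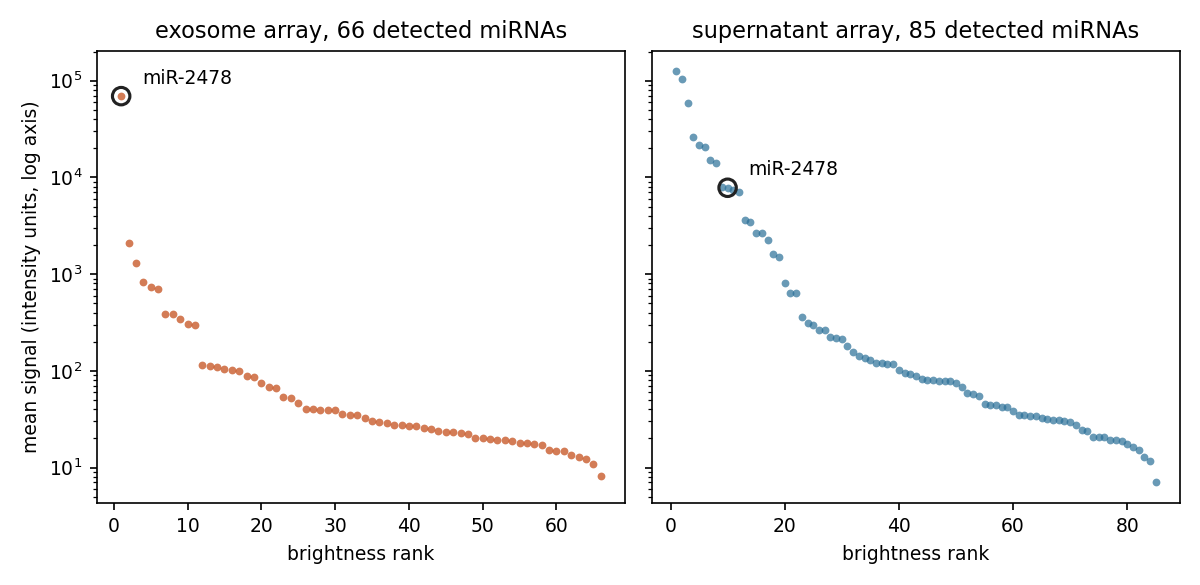
Mean signal (intensity units, log axis) of the detected miRNAs against their brightness rank, for the exosome array (left) and the supernatant array (right); the ringed point is miR-2478. It stands alone at rank 1 on the exosome array at 69241, above miR-1777b at 2079, and sits in the slope at rank 10 on the supernatant array.

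The summed signal of the other miRNAs went the other way. Without miR-2478 the summed signal was 10259 in exosome and 432809 in supernatant, 42.2 times as much. With miR-2478 the sums were 79500 and 440622, a 5.54-fold difference. miR-2478 itself was 8.86-fold brighter on the exosome array. Single miRNAs did not all follow the sum: of the 30 detected on both arrays, miR-2478 included, 6 were brighter in exosome unscaled and 18 were higher after scaling to the 75th percentile of probes seen on both.
The 9 other miRNAs among the 10 brightest on the supernatant array were all detected on both arrays, and 0 of these 9 were brighter on the exosome array. They were picked by their supernatant signal, which favours that count, as the choice of miR-2478 favours exosome. After scaling, 2 of the 9 were higher in exosome, miR-1224 by 1.55 and miR-2412 by 0.05 on the log2 scale. The longest probes of these 9 miRNAs had 11 to 13 bases and a GC content of 72.7% to 100%. The longest probe of miR-2478, with 16 bases and 56.3%, lay outside both ranges. On the exosome array the longest probes of the 9 other miRNAs in the top 10 had 11 to 20 bases and 35.0% to 100% GC, and those of miR-2478 lay inside both ranges.

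Scaling decided the size of the difference between the fractions but not its direction. Unscaled, miR-2478 was higher in exosome by 3.15 ± 0.16 on the log2 scale. The main scaling used the upper quartile (75th percentile) of the 53 probes seen on both arrays, 473 for exosome and 15030 for supernatant, and with it the log2 difference was 8.14 ± 0.16. The difference was above 1 on the log2 scale under all 8 scalings tried, from 1.56 when scaled to the labelling controls to 8.43 with the 75th percentile taken without the miR-2478 probes. The 8 include the unscaled value and are not independent checks. The 75th percentile of all miRNA probes fell among undetected probes, since 103 of the 1465 were detected in exosome and 166 in supernatant. Quantile normalization gave 4.59 and scaling to the hybridisation controls gave 3.23. Exosome exceeded supernatant by 2-fold or more for 16 of the 30 miRNAs detected on both arrays (53.3%) once scaled and for 5 (16.7%) unscaled, and miR-2478 was among them both times.
The median of the 30 was 1.30 after scaling and -3.69 without. miR-2478 ranked 2nd of the 30 under 7 of the 8 scalings, below let-7b, and 4th with quantile normalization. miRNAs detected on the exosome array only are outside this ranking, and some of them leaned further to exosome. For example, let-7a read 385 ± 23.9 in exosome and 2.32 ± 3.27 in supernatant, and miR-148a 110 ± 8.23 and 0.57 ± 3.02.

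Labelling differed between the arrays in the same direction as miR-2478. The labelling controls are RNAs added before labelling. dmr_285 read 237 ± 142 in exosome and 68.4 ± 41.0 in supernatant, and was 3.47-fold brighter on the exosome array. dmr_31a read 116 ± 18.2 and 44.5 ± 6.54, and was 2.60-fold brighter. The part of these controls in the result was not tested. The difference of miR-2478 was 1.56 on the log2 scale when both arrays were scaled to them, and the spread of the controls is not carried into its SD. The hybridisation controls, which are added after labelling, stood at 0.96-fold for dmr_3 and 0.93-fold for dmr_6, exosome over supernatant. dmr_3 read 5886 ± 3386 and 6130 ± 3441, and dmr_6 read 1479 ± 385 and 1587 ± 431.

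Among the 30 miRNAs detected on both arrays, let-7b and miR-200c, with miR-2478, kept an exosome excess in each of the 8 scalings. let-7b belongs to a conserved family that acts in development, and its log2 difference was 9.20 scaled and 4.21 unscaled (828 ± 47.6 against 44.6 ± 5.26). miR-200c, which marks epithelial cells, had 7.93 and 2.94 (343 ± 24.5 against 44.7 ± 4.47). Beside 8.14 scaled and 3.15 unscaled for miR-2478, let-7b lay higher and miR-200c slightly lower. With quantile normalization let-7b had 8.36 and miR-200c 7.58, against 4.59 for miR-2478. The signals of let-7b and miR-200c were lower than that of miR-2478 on both arrays. miR-2478 was 1st on the exosome and 10th on the supernatant array, let-7b 4th and 57th, and miR-200c 9th and 56th.
By distance over the 2 scaled log2 levels, the miRNAs most like miR-2478 were miR-1777b (6.28 log2 units away), miR-1224 (6.56) and miR-2412 (6.78). None lay close: their exosome levels were 5.06, 6.56 and 6.62 log2 units below that of miR-2478. A likeness over 2 arrays says only that these levels were nearest.

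**Figure D3:**
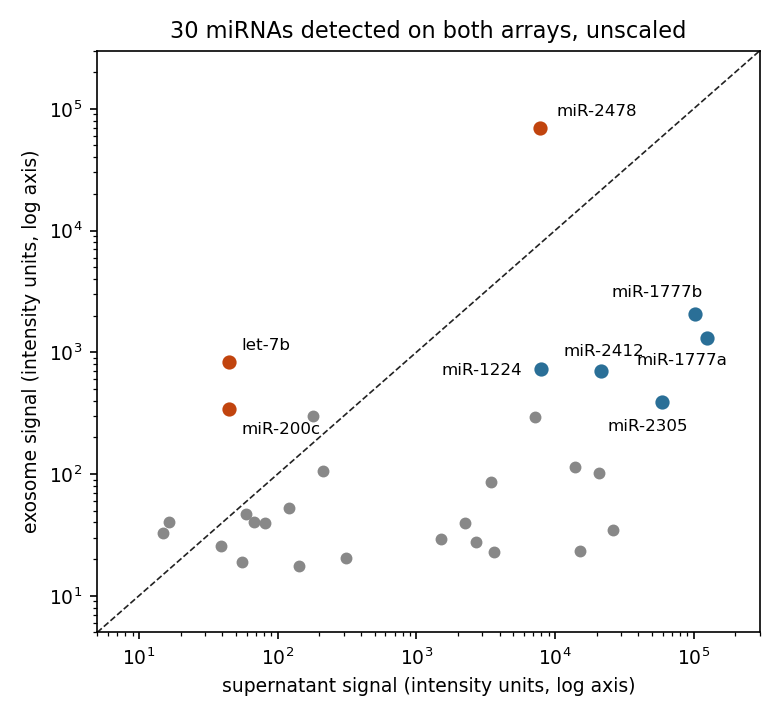
Exosome signal against supernatant signal (intensity units, both axes log, unscaled) for the 30 miRNAs detected on both arrays; orange points are named miRNAs brighter on the exosome array, blue points named miRNAs brighter on the supernatant array, and the dashed line marks equal signal. miR-2478, at 69241 and 7814, lies above the line and apart from let-7b and miR-200c, whose supernatant signals were 44.6 and 44.7.

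One base of probe length moved the signal strongly. On the exosome array the 16-base probe was 5.71-fold brighter than the 15-base probe, a step of 2.51 ± 0.16 on the log2 scale. In the supernatant the step was 14.3-fold, or 3.83 ± 0.14. The 15-base probe thus held 14.9% of the summed light of both probes in exosome and 6.56% in supernatant. The step in exosome minus that in supernatant was -1.32 ± 0.21 log2 units, larger than the spread between spots; no replicate array bears on this.
Probes of the same miRNA were paired with the next longer one, and in all 795 such pairs the longer probe had 1 added base. Where both probes were detected, the median step was 0.88 in exosome (37 pairs) and 0.01 in supernatant (81 pairs). The step of miR-2478 was the 5th largest of 37 and the 2nd largest of 81. A pair whose dimmer probe was not detected has no step, so these ranks can miss steep steps of dimmer miRNAs. The added base was G or C, as in miR-2478, in 24 of the 37 exosome pairs, with a median step of 1.31, and in 50 of the 81 supernatant pairs, with a median of 0.06. Where it was A or T, the median was 0.51 (13 pairs) and -0.05 (31 pairs).

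Since the steps differed, the probes gave different sizes for the same comparison. The 15-base probe was 20.1-fold brighter in exosome, a log2 difference of 4.33 ± 0.17 unscaled and 9.32 scaled. The 16-base probe was 8.07-fold brighter, with 3.01 ± 0.12 and 8.002.
Spot by spot at the same place on both arrays, the ratio ran from 16.01 to 23.1 over 28 places for the 15-base probe and from 6.66 to 9.27 over 30 places for the 16-base probe. The ratio ranges of the 15-base and 16-base probes did not overlap. All 58 ratios were above 1, which follows from the spot ranges without overlap and adds no support. All of them come from the same 2 arrays, and the share of other probes with such ratios is not given here. Among the 53 probes detected on both arrays, the 15-base probe had the 2nd largest and the 16-base probe the 4th largest unscaled difference.
In 23 probe pairs detected on both arrays the step could be set against itself. The median size of the change between arrays was 0.18 log2 units, and 5 pairs changed by at least 1: miR-1343 by 2.50, miR-1584 by -2.06, miR-2478 by -1.32, miR-2328* by -1.19 and miR-320 by 1.10, exosome minus supernatant. A steeper step on the supernatant array was thus shared with miR-1584 and miR-2328*, while miR-1343 and miR-320 had the opposite sign. The other pairs of 15 and 16 bases detected on both arrays were those of miR-2304, with steps of 0.30 and 0.36, and miR-92, with 1.59 and 1.41.

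**Figure D4:**
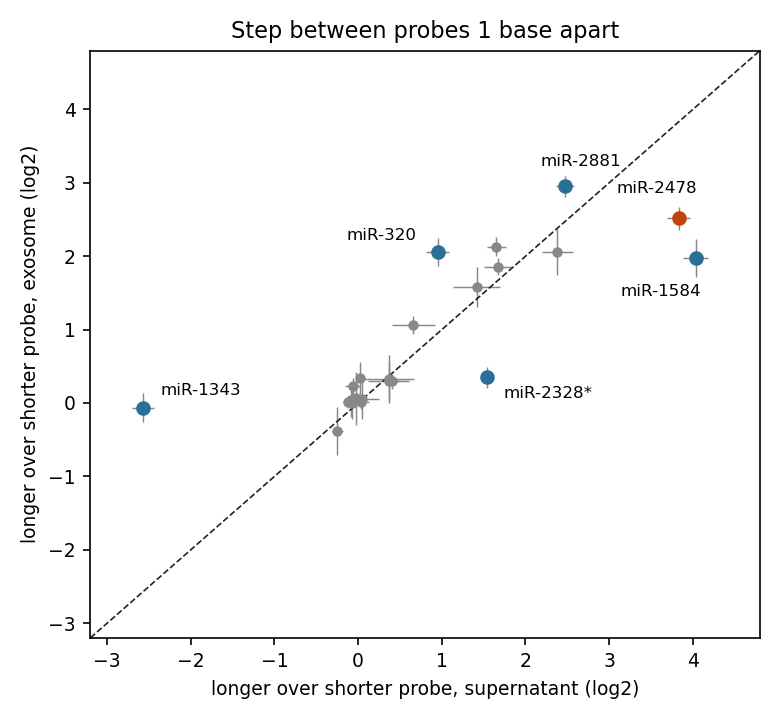
Step from the shorter to the longer probe (log2) on the exosome array against the same step on the supernatant array, for 23 probe pairs detected on both; bars are SDs between spots, the dashed line marks equal steps, and orange marks miR-2478. Most pairs lie near the line, and miR-2478, at 2.51 and 3.83, lies below it with miR-1584 and miR-2328*.

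A probe that starts with TGG pairs with a stretch of RNA whose last letters are CCA. Of the 1465 probes, 19 (1.30%) start with TGG, read on the probe strand only, and they belong to 9 miRNAs, or 1.34% of the 670. The longest probes of those detected, and of the closest in letters, are shown to set them beside miR-2478; the capitals mark the letters shared with the miR-2478 probes from the first base. miR-677 is added, whose capitals mark the longest run shared with miR-2478 at any position, 8 bases.
miR-2328*: TGGccccctccc
miR-23a: TGGaaatccctggca
miR-223: TGGggtatttgacaaactgac
miR-876: TGGTGattcacaaagaaat
miR-677: GTCAGAAGctgctcat
Of the 8 other miRNAs with this start, 2 passed detection in exosome and 2 in supernatant; over all 670 miRNAs the share was 9.85% in exosome and 12.7% in supernatant. miR-2328* was detected on both, at 114 ± 8.02 in exosome and 14038 ± 467 in supernatant. miR-23a was detected on the exosome array only, at 15.3 ± 3.65, and the myeloid miRNA miR-223 on the supernatant array only, at 19.3 ± 4.23. On the exosome array miR-2478 was the brightest of the 9, which follows from its choice as the brightest miRNA there. miR-2328* was the brightest of the 9 on the supernatant array.
miR-876 shares the most letters from the first base, 5, and was detected on neither array (-0.64 ± 3.27 and -0.016 ± 3.20). The other 4, miR-2370*, miR-551a, miR-2411 and miR-2415*, were likewise detected on neither.

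No other probe on the array came close to those of miR-2478. The longest shared run was the 8 bases of miR-677, which was detected on neither array (-2.35 ± 3.07 and -2.51 ± 2.81). Of the 5 miRNAs with a shared run of at least 7 bases, 0 were detected on either array, and with 9.85% and 12.7% of all miRNAs detected a count of 0 in 5 says little. Aligned from the first base over 12 bases or more, the nearest other probe had 5 mismatches. The miR-2478 signal therefore had no near copy on the array to be set against. From a list of 8 names given in human or other species to short RNAs that resemble tRNA ends (miR-720, miR-1260, miR-1260a, miR-1260b, miR-1274a, miR-1274b, miR-1280 and miR-1308), 0 were on this array, so it gave no second reading of such RNA.
Whether a tRNA 3′ end gave part of the exosome signal was not tested. Letters of tRNA genes and of the full miR-2478 RNA were not used here, and no value from these arrays separates a miRNA from another RNA with the same 3′ end.

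The software's own totals and the deposited value table gave the same ratio. The software's total gene signal for miR-2478 was 58732 on the exosome array, with its error given as 5083, and 6628 on the supernatant array, with 622. Each is the sum of its probe totals, 8749 and 49983 in exosome and 435 and 6193 in supernatant. In the value table miR-2478 stood at 19.16 and 16.02 log2 units, ranking 1st and 10th of 691 entries. The column medians were 0, and the table's direction and scale follow from the scanner files. The log2 difference without scaling was 3.15 from either source.

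**Figure D5:**
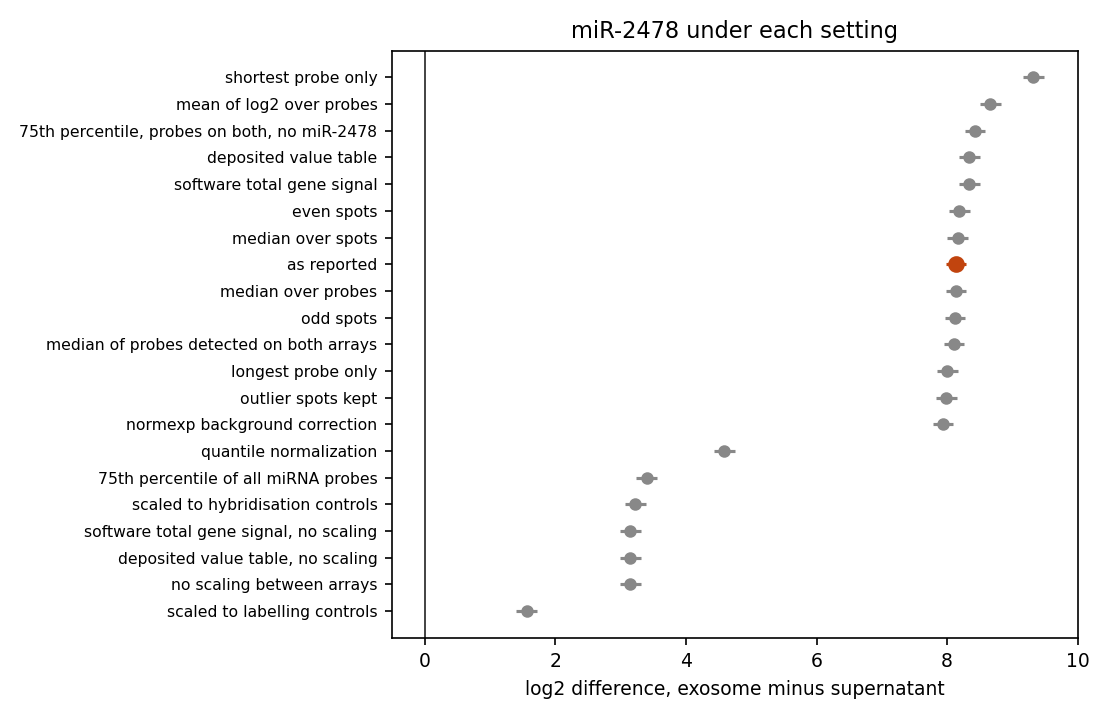
Log2 difference of miR-2478, exosome minus supernatant, under each setting tried. Each point is 1 setting, and orange is the value as reported (8.14). Every bar is the same SD of 0.16 between the miR-2478 spots, which leaves out the spread of the control spots. The points reuse the same spots of both arrays and are not independent. All 21 points lie to the right of 0, from 1.56 with the labelling controls to 9.32 with the shorter probe only.

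Of 9 miRNAs known from milk and the mammary gland, 8 were detected in exosome and 5 in supernatant, with summed signals of 2138 and 476. miR-21 was detected in neither. Of 5 leukocyte, 3 red blood cell, 4 muscle and 1 liver markers, 0 passed detection in exosome, and 4 (miR-223, miR-486, miR-133a and miR-133b) did so in supernatant. In all, 66 of the 670 miRNAs (9.85%) were detected in exosome and 85 (12.7%) in supernatant. Beside these shares, a count of 0 among so few blood, muscle and liver markers says little.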

How the data were processed

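Agilent Feature Extraction 10.7.3.1 turned the scans into spot values, per the file headers and the submitters' processing notes. The deposited scanner values are intensities with each spot's background taken off and no scaling between arrays. The authors' deposited value table holds log2 of the software's total signal per miRNA over 0.1. Here, outlier spots were dropped, the remaining spots averaged per probe, and probes averaged per miRNA on the linear scale. Detection of a probe required 50% or more of its spots to be well above background; 1 detected probe made a miRNA detected. Both arrays were divided by their 75th percentile over probes detected on both. For a miRNA, the SD is taken as the root of the mean squared SD over probes. Alternatives covered 7 other scalings, normexp with an offset of 50, probe and spot summaries, outlier spots and the software's values. The number of arrays, 1 per fraction, limits the precision. The members and lists were chosen with earlier results of these data known. Other named miRNAs were the 3 brightest on each array, the 3 nearest to miR-2478 in level, those with TGG-starting or similar probes, and let-7b and miR-200c. The summary steps were tested on simulated data. The normexp step ran in limma 3.58.1 under R 4.3.3, and the rest in Python 3.11.15 with pandas 2.3.3 and numpy 2.4.6.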

Additional observations from a re-analysis of the deposited data

How the results depend on the processing

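All 20 alternatives reuse the same spots of both arrays, and some give the same number, so they are not independent checks. The log2 difference of miR-2478, 8.14 as reported, kept its sign under each of them. It was 3.15 with no scaling, also from the software total or the value table without scaling, which were chosen after seeing the data, 3.40 with the 75th percentile of all miRNA probes, 8.43 with the percentile without miR-2478, 4.59 with quantile normalization, 1.56 with labelling controls and 3.23 with hybridisation controls. It was 7.94 with normexp, 8.66 with the mean of log2 over probes, 9.32 with the shortest probe only and 8.34 with the software total or the value table, both scaled. The share of summed signal on the exosome array, 87.1%, was 76.4% with normexp (its offset of 50 taken off again), 83.6% with the mean of log2, 89.8% with the longest probe, 74.1% with the shortest probe and 86.2% with outlier spots kept. On the supernatant array the share of 1.77% was 0.92% with the mean of log2, 3.18% with the longest and 0.24% with the shortest probe, and the rank of 10 became 12, 8 and 18. The count of miRNAs with an exosome excess of 2-fold or more went from 16 to 5 with no scaling. Over the log2 difference and the steps between probes, 17 of 30 alternative values moved by no more than the spread between spots and 13 by more, with 0 sign changes; for the shares, which have no sign, 14 of 22 moved by no more than that spread and 8 by more. The cause of these shifts was not tested. The planned match to tRNA 3′ ends was not run. No paired analysis was possible because each fraction had 1 array.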
